A study of Mus musculus with 4 samples.

Results

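The loci described here are nuclear loci of the mouse heart whose every transcript model is a single exon and which carry a UCSC gene model. They were chosen from the deposited transcript models and counts: at least 1 model with a UCSC identifier, exactly 1 exon in all models, no location on the mitochondrial chromosome, and a mean of 10 or more normalised reads over the libraries. This gave 467 loci of the 35299 in the series. They are called intronless loci below.

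All 4 hearts of the series were labelled Sham, as biological replicates, so there was nothing to compare them with. The labels describe C57BL/6J mice aged 12 weeks, with heart tissue taken 2 weeks after a sham operation at the place that would border an infarct. No transgene, allele or drug is named. For replicate 4 the free text names an infarct border and leaves out sham, unlike its other labels, and it was kept in the group. The libraries are headed 3RL, 7LR, 8R and 12RL in the table, names that no label uses, so no library could be tied to a replicate number. Values of the 4 libraries are given below in the order 3RL, 7LR, 8R, 12RL. Summed over all loci, mitochondrial ones included, the counts before normalisation ran from 108345923 (12RL) to 160670654 (8R). In bulk heart RNA, fewer cells of a type and less RNA per cell cannot be told apart. The models carry no gene symbols and their identifiers could not be paired with names here, so each locus is named by its mm9 position, and the tissue label was not checked against marker genes.

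Most mammalian genes are split by introns, and splicing is coupled to capping, export and polyadenylation of the transcript. Genes without introns are known to include those of replication-dependent histones, many G-protein-coupled receptors and among them the olfactory receptors, transcription factors such as Jun, inducible heat shock proteins, the large single exons of clustered protocadherins, small RNAs and copies of spliced genes that arose by reverse transcription. Replication-dependent histone transcripts end in a stem-loop in place of a poly(A) tail, and selection for poly(A), as used for these libraries, is known to recover them poorly. Copies that arose by reverse transcription can be almost identical in sequence to their parent gene. How reads matching more than 1 place were counted is not given in the sources used here.

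Few of the annotated intronless loci were expressed, and those that were mostly had long models, assembled models included. Of 5585 intronless nuclear loci with a UCSC model, 467 (8.36%) reached a mean of 10, while 4627 (82.8%) were at 0 in all 4 libraries, where a count of 0 allows up to 3 reads per library. Of 20485 spliced annotated nuclear loci, 14479 (70.7%) reached that mean and 2703 (13.2%) were at 0. The mean itself chose the loci, and a locus with any spliced model, assembled ones included, counted as spliced. Expression could thus move a locus out of the intronless set, so these shares are a description.

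The gap to spliced loci, in percentage points, was widest from 201 to 1000 bases. Of 3333 intronless loci with a longest model of up to 200 bases, 10 (0.300%) reached the mean of 10. From 201 to 1000 bases it was 41 of 1477 (2.78%), against 646 of 2472 spliced loci (26.1%). From 1001 to 2000 bases it was 108 of 343 (31.5%), against 51.0% of spliced loci. From 2001 to 4000 bases the shares were 65.6% and 73.4%, and from 4001 to 8000 bases 85 of 100 against 92.6%. Over 8000 bases 17 of 18 intronless loci (94.4%) reached it, against 98.3% of spliced loci. The longest model could be an assembled one, so reads themselves could move a locus into a longer class. Of the 467 loci, 120 held an assembled model, at a median of 2.33 times the UCSC length. The rise with length may thus be partly built in, by an amount that was not measured.

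**Figure D1:**
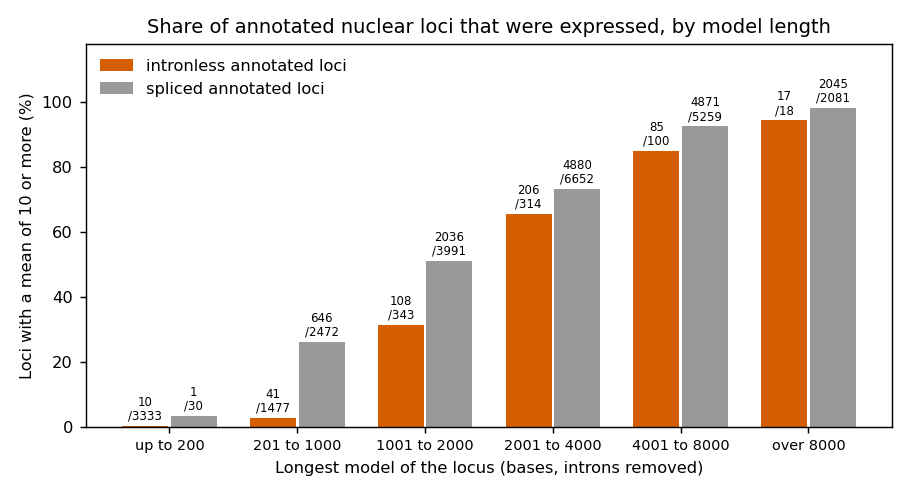
Percent of annotated nuclear loci whose mean reached 10 normalised reads (y axis, from 0) in classes of the longest model in bases (x axis), for intronless loci and spliced loci. The numbers above each bar are loci reaching the mean over all loci of the class. The shares of intronless loci run from 0.300% to 94.4% and lie below those of spliced loci in every class. The longest model can be an assembled one.

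The intronless loci took a small and fairly constant part of the nuclear reads, with 1 locus taking much of its variation. Their share of nuclear counts was 0.631% in 3RL (95% Wilson interval 0.629 to 0.633), 0.579% in 7LR (0.578 to 0.581), 0.575% in 8R (0.573 to 0.576) and 0.536% in 12RL (0.534 to 0.538), a mean of 0.580% ± 0.0390 (SD, n = 4). The intervals cover counting error only. The library 3RL had the largest share and 12RL the smallest. Without the highest locus the share was 0.504%, 0.489%, 0.505% and 0.491%, a mean of 0.497% ± 0.00859 (SD, n = 4). That locus alone held 20.1% of the counts of intronless loci in 3RL and 8.45% in 12RL. The 10 highest together held 39.7% ± 3.14 of them (SD, n = 4).

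The median intronless locus had a mean of 199 normalised reads, with quartiles of 40.9 and 1260. The range was from 10.1 to 97360. Spliced annotated loci at a mean of 10 or more had a median of 1901. Per kb of exon the medians were 90.1 and 394 normalised reads, so the difference in level was smaller once length was divided out. The longest model of an intronless locus had a median of 2613 bases and that of a spliced locus 3855 bases. Just inside the limit, the locus at chr7 28768333 to 28770815 had a mean of 10.1, chr13 3539865 to 3542326 had 10.3 and chr5 135034110 to 135035963 had 10.8. Just outside it, chr6 86578168 to 86579698 had 9.92, chr7 109872046 to 109873002 had 9.90 and chr18 64609341 to 64609669 also had 9.90.

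The highest intronless locus differed more between hearts than the others of the first 10. It was the 842-base locus on the minus strand at chr1 24620810 to 24621651, with 146141, 103514, 85774 and 54011 normalised reads. Library 3RL was 2.71 times 12RL, and the mean was 97360 ± 38431 (SD, n = 4). It had 115629 normalised reads per kb, above every other of the 467 loci. Its nearest locus lay 26534 bases away and had a mean of 7.93. The CV of the other 9 ran from 4.16% to 25.2%, against 39.5% here. Whether reads of this locus also match other places, the mitochondrial chromosome included, was not tested. Mitochondrial loci held 30.7% ± 1.33 of all counts (SD, n = 4).

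The second, at chr17 56395107 to 56408968 on the plus strand, had 45178, 42434, 47882 and 49738. Its values lay close together, with a CV of 6.89%. Its exon overlapped that of a 10-exon locus on the opposite strand, chr17 56400400 to 56429934, which had a mean of 30108 ± 3654 (SD, n = 4). The strandedness of the libraries is not given, so reads of the pair cannot be assigned to a strand.

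The third, at chr2 131003025 to 131005748, had 32644, 28441, 35271 and 30501. It lay inside an 8-exon locus of the same strand, chr2 130995997 to 131013018, without touching its exons, and that locus had a mean of only 967. The fourth, at chr18 49550929 to 49557487, had 17487 in 3RL and 18316 in 8R, with 23254 in 7LR and 22537 in 12RL. Its nearest locus lay 125456 bases away and was at 0 in all 4 libraries.

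The fifth, at chr6 86474491 to 86476159, had 18144, 15717, 20509 and 17269. It stood head to head with a spliced locus that began 106 bases away and had a mean of 475. The sixth, at chr15 78858642 to 78860930, had a mean of 14449 ± 1065 and the seventh, at chr8 113660808 to 113663666, of 13251 ± 551 (SD, n = 4). The 3 after that were at chr4 88364196 to 88368412 with 11114 ± 835, chr15 72636030 to 72640754 with 10363 ± 815 and chr8 25546359 to 25553154 with 10156 ± 2562. In the last of these, 8R (13249) and 7LR (11276) lay above 3RL (8065) and 12RL (8035).

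**Figure D2:**
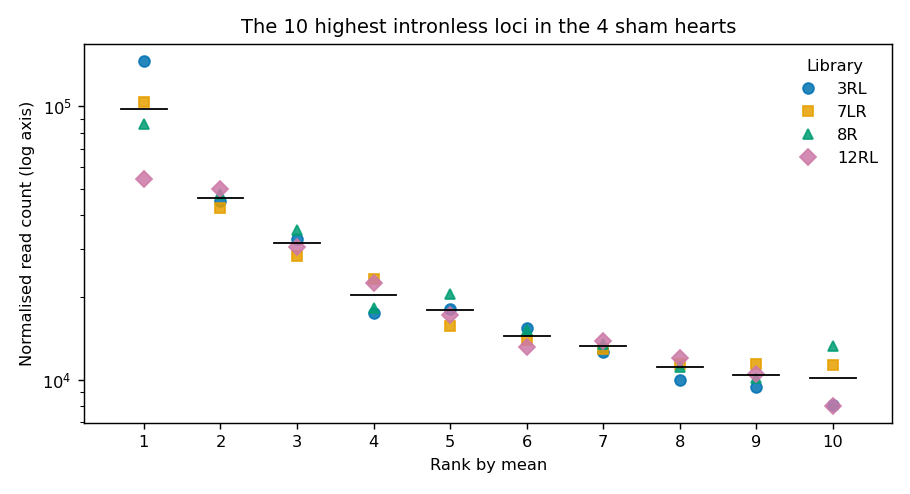
Normalised read counts (log axis) of the 10 intronless loci with the highest mean (x axis, rank by mean), 1 point per library and a line at the mean. The first locus ranges from 54011 in 12RL to 146141 in 3RL, while the second to the ninth lie in narrow bands around their means.

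Counted per kb, loci standing apart from all others were led by the chr1 locus above, followed by those at chr6 86474491 with 10731 and chr15 78858642 with 6312 normalised reads per kb. Next came chr4 86221590 to 86223187, with 6251, 5869, 6755 and 5991, or 3890 per kb. The fifth was chr9 56785307 to 56786205, with 3003, 2555, 3275 and 2993, or 3289 per kb. Both varied little, with CVs of 6.32% and 10.1%.

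Many intronless loci lay inside or across other loci. Of the 467, 211 (45.2%) stood apart from every other locus of the series, against 60.7% of the 14479 spliced annotated loci. A further 114 (24.4%) lay inside the span of a locus on the same strand without touching its exons, which was the case for 111 spliced loci (0.767%). Another 40 (8.57%) lay so inside a locus on the opposite strand, against 1.77% of spliced loci. The remaining 102 (21.8%) overlapped exons of a locus on the opposite strand, against 31.0% of spliced loci. The other 840 spliced loci (5.80%) overlapped the span of another locus without touching its exons or lying wholly inside it. A single exon cannot do so, which limits the comparison of these shares. No locus of either kind overlapped exons of another locus on its own strand. That can follow from how models were grouped into loci, so nothing is read from it. These shares were not tested.

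Of the 211 that stood apart, 131 (62.1%) had their nearest locus within 5 kb, close to the 61.2% of spliced loci that stood apart. Among those 131, the neighbour lay upstream on the same strand in 34 (26.0%) and downstream on it in 10 (7.63%). For spliced loci the same shares were 13.7% and 15.3%. The neighbour was head to head in 33 (25.2%, against 24.8%), tail to tail in 22 (16.8%, against 24.0%) and without a strand in 32 (24.4%, against 22.2%). Intronless loci thus lay behind a locus of their own strand more than 3 times as often as in front of one, while spliced loci did so about equally.

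The 102 loci that overlapped exons of the opposite strand had a median of 258 normalised reads, and the highest overlapping partner of each had a median of 1953. The partner was the higher of the pair in 66 of 102. The largest after chr17 56395107 was chr8 113660808 to 113663666, with 12667, 12943, 13499 and 13895. It was followed by chr2 25992334 to 25993823, with 8957, 7676, 9316 and 7891. Both were far above their partners, whose means were 89.8 and 1749.

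The 114 loci inside a same-strand locus were lower, with a median of 83.6 normalised reads against 382 for those standing apart. The counts cannot tell reads of such a locus from unspliced RNA of the locus around it. The surrounding loci, 90 in number, had a median of 6141 over the 114 pairs and were the higher of the pair in 98. The highest after chr2 131003025 were chr15 72636030 to 72640754 and chr16 8850298 to 8852435. The first had 9415, 11378, 10155 and 10504, against a mean of 6599 in its surrounding locus. The second had 6038, 6891, 7726 and 6586, against 10577. In the class inside opposite-strand loci, the highest were chr19 31157331 to 31161082 with a mean of 5547 ± 516, chr2 125498836 to 125501378 with 5233 ± 205 and chr11 5906291 to 5908331 with 4304 ± 849 (SD, n = 4). Those 3 surrounding loci had means of 1306, 107 and 2442.

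All 5 loci with models under 100 bases, which is the length of 1 read, lay inside a same-strand locus. The shortest, of 23 bases at chr13 63401837 to 63401859, had 33.4, 36.4, 20.5 and 33.1. Its surrounding locus had a mean of 8426. The next 3, of 37, 42 and 59 bases, lay in a single locus at chr6 128388819 to 128453299, itself at a mean of 94.1, and had means of 12.4, 14.9 and 17.7. The fifth, of 62 bases at chr4 131866222, had a mean of 26.3. Over the 10 loci of up to 200 bases the means ran from 12.4 to 65.9. At such levels counting error is large, since 10 reads alone give a CV of 31.6%.

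At the other end, the longest model was the 29698-base exon at chr14 48818390 to 48848087, with 2289, 2774, 2622 and 2797. The 29254-base exon at chrX 147262232 to 147291485 had a mean of only 27.3 ± 5.95, or 0.932 normalised reads per kb. The next were chr7 91023887 to 91040866 with 1672 ± 257 and chr12 59354292 to 59370256 with 3691 ± 933 (SD, n = 4). Level did not follow length among these.

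Some intronless loci held an assembled exon longer than the UCSC model. Of the 467, 347 held the UCSC model alone and 120 also held an assembled model, which by the choice of loci was a single exon too. The assembled model reached further at the 3' end in 101 of the 120, by a median of 1828 bases, and by 1000 or more in 87. It reached further at the 5' end in 44, by a median of 798 bases where it did. The 120 had a median UCSC length of 1544 bases and a median of 357 normalised reads, against 2353 bases and 175 normalised reads for the 347. Which libraries entered the assembly is not given in the sources used here.

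Intronless loci were spread over all autosomes and the X, with none on the Y, where no annotated intronless locus was placed. Chromosome 2 held most, 51 (10.9%, against 7.87% of spliced loci). It also held most of the 5585 annotated intronless loci of any level, 771, while chromosome 18 held 202 of them. Chromosome 18 held 30 (6.42%, against 2.51%), of which 20 formed a single run. With loci joined across gaps of up to 50 kb, 81 of the 467 fell into 27 runs, 19 of them pairs. Only 8 runs held 3 or more.

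The run of 20 on chromosome 18 was the only one with more than 4 loci. It reached over 221524 bases from 37454494 to 37676017, every locus lay on the plus strand, and all 20 sat inside a single locus of that strand at chr18 37089939 to 38001526. The lengths were alike, from 2319 to 5270 bases with a median of 3418. Every annotated intronless locus inside the run reached a mean of 10. The levels were not alike: the highest, at 37644675 to 37647944, had 602, 601, 539 and 593, while the lowest, at 37454494 to 37457268, had 7.16, 15.9, 13.6 and 9.46. Per kb they ranged from 4.16 to 178 normalised reads.

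The 6 highest loci of the run lay between its 13th and 19th from the 5' end. The second highest, at 37663918 to 37667314, had 430, 449, 470 and 432. The third, at 37607311 to 37610748, had 325, 306, 354 and 298. The 3 highest are the 16th, 19th and 13th in that order. Summed over the run, the values were 2963, 2968, 2821 and 2773, a mean of 2881 ± 99.1 (SD, n = 4). The run as a whole was thus nearly constant between hearts, with single loci at CVs from 3.86% to 38.6% and a median of 15.8%. The surrounding locus had 17971, 18076, 15669 and 16099, a mean of 16954 ± 1248 (SD, n = 4).

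**Figure D3:**
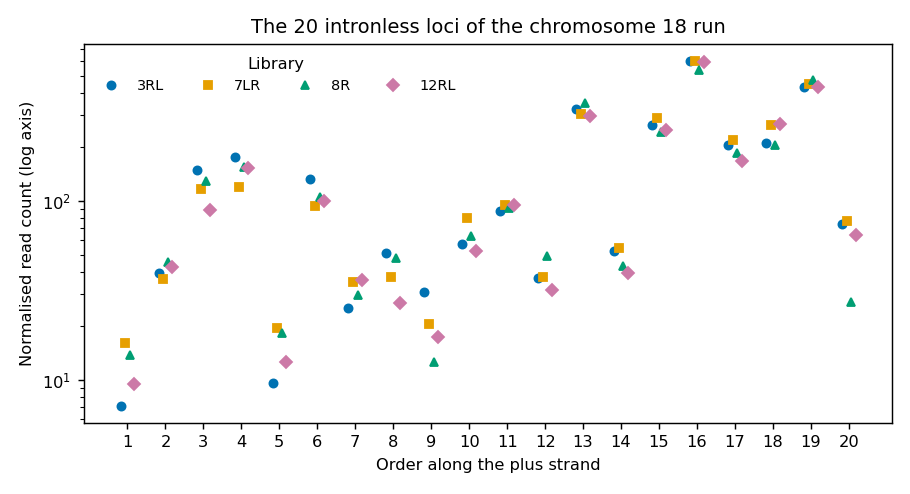
Normalised read counts (log axis) of the 20 intronless loci of the run on chromosome 18, in order along the plus strand (x axis), 1 point per library. Levels reach from 7.16 to 602, and the 4 libraries of a locus mostly lie close together compared with the distance between loci.

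The next run by size, 4 loci at chr4 88364196 to 88429496, joined the eighth highest locus to 3 low ones. The means of those 3 were 17.0, 55.7 and 18.8. A further run of 4, at chr13 23622919 to 23675225, had means from 12.1 to 431. Its sum was 548, 506, 592 and 549, with no library far from the others.

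A few intronless loci differed strongly between hearts. Among the 335 with a mean of 50 or more, 14 (4.18%) had a CV above 50%, where over all 14424 loci of the series at that mean the share was 1.38%. Intronless loci were lower in count, and low counts spread more. Within level classes the counts were 7 of 103 (6.80%) from 50 to 200, 4 of 103 (3.88%) from 200 to 1000 and 3 of 129 (2.33%) at 1000 or more. Over all loci the same classes gave 5.24%, 1.44% and 0.351%, and over spliced annotated loci 3.27%, 0.992% and 0.259%. No test across loci was made.

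The first and the fifth locus by CV formed a pair of minus-strand loci of nearly equal length on chromosome 17, 10120 bases apart, both high in 8R. The one at 35106304 to 35109101, of 2798 bases, had 223, 347, 1423 and 382, a CV of 93.8%. The one at 35093374 to 35096183, of 2810 bases, had 215, 260, 766 and 285, a CV of 67.7%. In both, 8R stood far above the other 3 libraries. Whether the pair shares sequence, and so reads, was not tested.

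The second by CV, at chr2 19574413 to 19582933, was also highest in 8R, with 1788, 3791, 10140 and 2647. Another locus went the other way, with 3RL highest. That at chr2 84976560 to 84980080 had 12288, 3861, 1806 and 4464, so that 3RL was 6.80 times 8R. It sat inside a 5-exon locus of its own strand with a mean of 17.1. The fourth, at chr17 28660226 to 28662268, had 29.8, 74.0, 148 and 34.7. At a mean of 1000 or more, the 3 loci with a CV above 50% were those at chr2 19574413 and chr2 84976560 and that at chr13 29040739 to 29047022, which was picked after its values were seen. It had 4146, 1475, 1104 and 3065. The high loci were thus not all high in the same library. Among the 5 loci with the highest CV, 8R was highest at all but that at chr2 84976560. Over all loci at a mean of 10 or more, 8R was highest at 34.3%.

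The most constant loci at a mean of 50 or more varied by a few percent. The locus at chr9 106783260 to 106788274 had 2705, 2616, 2644 and 2605, a CV of 1.70%. Those at chr12 85291620 to 85293895, chr10 112361255 to 112366082, chr16 42955693 to 42956192 and chrX 149932775 to 149936101 had CVs of 2.35%, 2.70%, 2.82% and 2.85%. The chr16 locus had a mean of 82.6 ± 2.33 (SD, n = 4), while the same-strand locus around it had 1956, 3715, 1829 and 4927. The small locus was named for its low CV, so nothing is read from this pair.

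Compared at the same level, the median spread of intronless loci between hearts was about that of spliced ones from 50 to 1000 normalised reads. It was somewhat larger below and above. A CV above 50% was more frequent among intronless loci in each class from 50 normalised reads up, as given above. The spread was taken as the SD over the 4 libraries of log2(value + 1), a measure the choice of loci did not use. Its median over all 467 was 0.25, against 0.16 for spliced annotated loci and 0.19 for all 18912 loci at a mean of 10 or more. From 50 to 200 normalised reads the medians were 0.28 and 0.28, and from 200 to 1000 they were 0.19 and 0.19. At 1000 or more they were 0.15 for 129 intronless loci and 0.12 for 8891 spliced loci, and from 10 to 50 they were 0.49 and 0.43. Within the lowest and highest classes the intronless loci were also lower in mean, with medians of 19.7 against 22.7 and of 2447 against 4429. Much of the overall difference of 0.09 thus went with level.

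**Figure D4:**
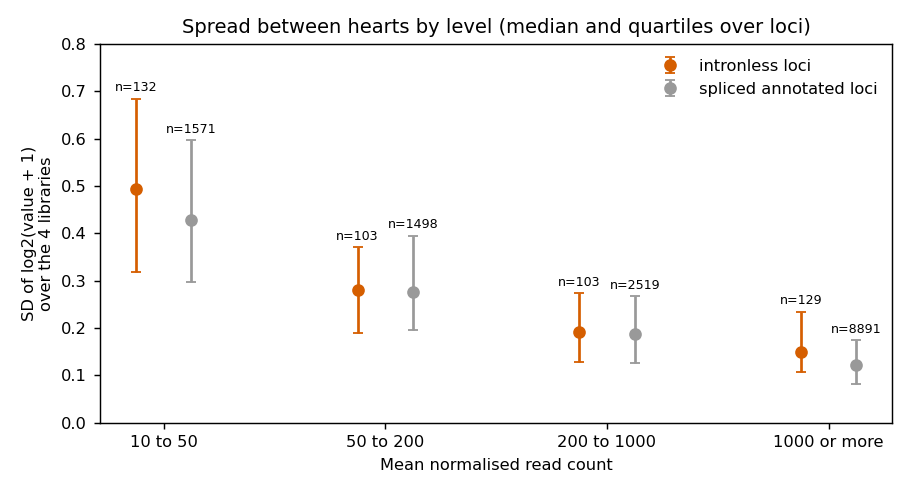
SD over the 4 libraries of log2(value + 1) (y axis, from 0) in classes of the mean normalised read count (x axis) for intronless and spliced annotated loci. Points are medians and bars quartiles over loci. The medians fall from 0.49 to 0.15 for intronless loci and from 0.43 to 0.12 for spliced loci.

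The share of intronless loci at which a single library stood apart was close to that of all loci. A library was called apart where the gap from the extreme value to the next, divided by the range of the 4 values, passed Dixon's 95% critical value. This held upward at 16 of the 467 (3.43%), against 3.35% of all loci, and downward at 6 (1.28%), against 1.53%. Of the 16, 7 were in 3RL, 4 in 8R, 3 in 12RL and 2 in 7LR. Of the 633 such loci in the whole table, 41.1% were in 8R and 27.2% in 3RL. These counts are small and were not tested.

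As a whole, the median deviations of intronless loci lay within 0.04 of those of spliced loci, but among models of 1 to 4 kb they differed by -0.0539 in 8R and 0.0622 in 12RL. The deviation of a library is its log2(value + 1) minus the average over all 4, and its median was 0.01, -0.02, 0.03 and 0.01. For spliced loci it was 0.02, -0.03, 0.04 and -0.03. Intronless loci were highest in 8R at 151 (32.3%), in 3RL at 109 (23.3%), in 12RL at 106 (22.7%) and in 7LR at 101 (21.6%). Over all loci at a mean of 10 or more these shares were 34.3%, 23.3%, 20.7% and 21.6%.

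The deviation of a library went with model length, and the rank correlation lay nearer 0 among intronless loci. Ranked over the 467 loci, deviation and longest model had a Spearman rho of -0.123 in 8R, 0.118 in 7LR, -0.0267 in 3RL and 0.0116 in 12RL. Across the 14479 spliced loci it was -0.322, 0.297, -0.201 and 0.264. Among models of 1001 to 2000 bases the median deviation in 8R was 0.07 for intronless and 0.13 for spliced loci, and in 12RL it was -0.02 and -0.09. The correlations are across loci, which are not replicates, and the intronless loci were lower in count. Their difference was not tested.

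Position went with the pattern between libraries. Loci standing apart and loci overlapping opposite exons were highest in 8R, as spliced loci were, with 0.05 and 0.07 in 8R and -0.06 and -0.06 in 7LR. The 114 inside a same-strand locus had a median of 0.14 in 7LR and 0.07 in 12RL, with -0.09 in 3RL and -0.03 in 8R. They lay above the 4-library mean at 39 in 3RL, where all loci did so in 51.8%, at 76 in 7LR (47.5% of all loci), at 49 in 8R (56.3%) and at 71 in 12RL (44.2%). They were highest in 7LR at 40 (35.1%) and in 12RL at 33 (28.9%), and in 3RL at only 12 (10.5%), where all loci had 21.6%, 20.7% and 23.3%. The 40 inside an opposite-strand locus had a median of 0.09 in 12RL and -0.10 in 8R.

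The medians of the surrounding loci lay nearer 0 in 3RL, 7LR and 12RL, and farther from 0 in 8R. The 87 of them with a mean of 10 or more had medians of -0.03, -0.01, 0.04 and -0.00170. Taken pair by pair, the inner locus deviated upward of its surrounding locus in 7LR at 67 of 111 pairs and in 12RL at 70, but in 3RL at 47 and in 8R at 48. Several inner loci share a surrounding locus, so pairs are not independent, and the inner loci had lower counts. Reads of an inner locus cannot be told from unspliced RNA of its surrounding locus. At a mean of 50 or more, 65 inner loci remained and the medians were 0.06 in 7LR, 0.04 in 12RL, -0.05 in 3RL and -0.03 in 8R. With a library left out, the median of all 114 ranged from 0.0860 (without 3RL) to 0.179 in 7LR and from 0.0363 (without 3RL) to 0.0743 in 12RL. It ranged from -0.114 to -0.0638 in 3RL, and from -0.0694 (without 3RL) to -0.00585 (without 7LR) in 8R, where it was -0.00632 without 12RL. Without 8R it was 0.0868 in 7LR and 0.0398 in 12RL. Library preparation and a difference between hearts cannot be told apart with 1 library per heart.

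**Figure D5:**
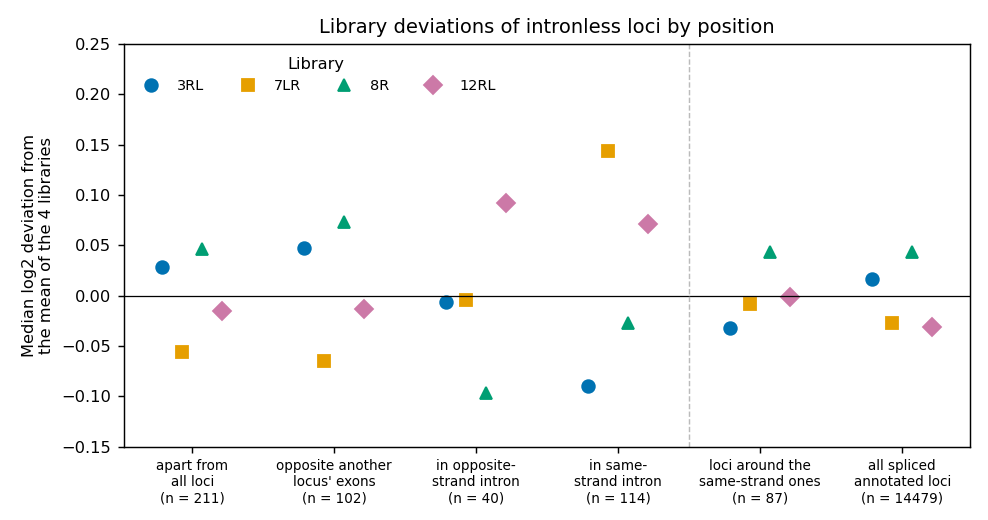
Median deviation per library on the log2 scale (y axis) for intronless loci in 4 classes of position, for the loci around those in same-strand introns, and for all spliced annotated loci (x axis, number of loci in brackets). The class in same-strand introns has 7LR highest at 0.14 and 3RL lowest at -0.09, and the loci around it have 8R highest at 0.04 and also 3RL lowest, at -0.03.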

How the data were processed

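Per the labels' protocols, poly(A) RNA of 4 sham hearts gave read pairs, each read 100 bases long. The submitters' processing notes name build mm9 with DESeq, HTSeq 0.5.4p2, Cufflinks 2.0.2 and TopHat2 2.0.5, without roles. The authors deposited a signal table of read counts divided by 1 size factor per library and a file of exon positions, pooled over the series. Every value was a whole multiple of 1 step (100% within 0.001), so whole reads were recovered. Members and rules were chosen with earlier results of these data known. No genome of mm9 was used here, so no sequence is shown, and the 4 libraries have no second group, so medians and counts over loci are given without tests.

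Logs were log2(value + 1). Positions came from exon and span overlaps of at least 1 base (bedtools 2.31.1), and the surrounding or overlapping locus with the highest mean was taken. Levels per kb used the union of exons. Named were the 10 highest loci, the 5 highest per kb (models of 500 bases or more, standing apart), the 5 highest and lowest CVs at a mean of 50, the 3 highest per position class, the 5 longest and shortest, the 2 largest runs, and 3 loci on each side of the limit. Alternatives were pseudocounts, minimum means, TMM (edgeR 4.0.16, R 4.3.3), equal nuclear totals and leaving out libraries. Only the Dixon calls and the log2 deviations were tested on simulated data (Python 3.11.15, numpy 2.4.6, scipy 1.17.1, pandas 2.3.3).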

Additional observations from a re-analysis of the deposited data

Results flagged for a closer look

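Among the 65 loci named by rule, 6 had a library that lay far from the other 3 by Dixon's ratio. About 1 in 20 groups would be picked out by chance. Over all loci at a mean of 10 or more, 3.35% were picked out upward and 1.53% downward. Some of the 65 were named for a high or low CV, so neither rate applies to them directly. Library 8R was high at chr17 35106304 with 1423 normalised reads, at chr17 35093374 with 766 and at chr2 125498836 with 5538. Library 12RL was high at the 59-base locus chr6 128397468 with 31.5. Library 8R was low at chr18 37644675 with 539, and 3RL at chr13 3539865 with 2.39, which is below 3 reads. The 2 loci on chromosome 17 were also picked for their CV, which rests on the same values.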

How the results depend on the processing

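A value was taken as moved where it left the reported one by 1 SD between libraries, a difference in spread by the SD of its leave-one-out values, and a count by more than 1.5 times. Of the settings run, 87 left a value the same and 11 moved it. For deviations the SD was that of the library medians themselves, 0.103 in same-strand introns and 0.0245 for the differences from spliced loci. Most of those medians were smaller than that SD, so even one that vanished would count as the same. The tally is therefore no measure of how firm the deviations are. The number of loci was 335 for a minimum mean of 50, 622 for 2, and 464 to 471 with a library left out. The share of nuclear counts was 0.322% for loci standing apart, 0.497% without the highest locus, and 0.563% to 0.595% with a library left out. The difference in median SD from spliced loci, 0.0918, became 0.0708 (pseudocount 10), 0.0492 (minimum mean 50), 0.103 (equal nuclear totals), 0.0749 (loci standing apart) and 0.0713 (without 3RL) to 0.0959 (without 8R). The difference in median deviation in 7LR, 0.0111, turned to -0.0291 for loci standing apart and was 0.0383 for models of 1 to 4 kb, where that in 8R, -0.0155, was -0.0539 and that in 12RL, 0.0392, was 0.0622. For loci standing apart that in 12RL was 0.0160. The difference in 3RL, -0.00854, turned to 0.00976 (minimum mean 50) and 0.0122 (loci standing apart). That in 8R turned to 0.00319 for loci standing apart, and that in 7LR to -0.00837 (minimum mean 50) and -0.000432 (without 3RL). Only that in 12RL kept its sign in every setting run. Libraries stood apart upward at 10 loci on log2 values, against 16. The medians of loci in same-strand introns kept their sign in every setting run, but ranged from 0.0552 (minimum mean 50) to 0.183 (equal nuclear totals) in 7LR, from 0.0363 (without 3RL) to 0.112 (without the run of 20) in 12RL, from -0.124 (without the run of 20) to -0.0499 (minimum mean 50) in 3RL, and from -0.0905 (equal nuclear totals) to -0.00585 (without 7LR) in 8R. In 7LR it was 0.0868 without 8R, and in 12RL 0.0398. Those settings and the share without the highest locus were chosen after seeing the data. The causes were not tested. No paired analysis was possible because all libraries belong to 1 group. At 10 reads, counting error alone is a CV of 31.6%.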
